A study of Mus musculus with 8 samples.

Results

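The genes of the cytosolic ribosomal proteins were studied in tumor endothelial cells. They were taken from the deposited gene table by symbol, as every Rpl or Rps gene with a number and at most the suffix a, l or x, together with Rplp0, Rplp1, Rplp2 and Rpsa. The rule uses names only. It found 81 of 35756 rows, 32 genes of the small (40S) and 49 of the large (60S) subunit, and leaves out mitochondrial ribosomal proteins, genes with other names such as Fau and rows named as pseudogenes, though the member Rps4l is classed as one by GENCODE M21. The cells came from LLC1 Lewis lung carcinomas grown in mice labelled C57BL/6, whose Tie2-CreERT2 line had by the methods been back-crossed onto C57BL/6J, and were purified from the digested tumors with beads against CD31. All mice carried, by the methods of the study, Tie2-CreERT2, a Cre recombinase that Tamoxifen activates in cells using the Tie2 promoter, and 1 floxed allele for the overexpression of PPARβ/δ. Before the tumor cells were injected, 4 mice received Tamoxifen in sunflower oil and 4 received the oil alone (vehicle). In the labels the vehicle mice are named wild-type and the Tamoxifen mice Ppard overexpression. Libraries of Tamoxifen-treated Tie2-CreERT2 mice that lack the PPARβ/δ allele were not analysed here, and hence the overexpression, Tamoxifen and active Cre cannot be told apart. Libraries are numbered singly (oil2453, Tax2604) and each is taken as 1 mouse. As the labels do not say so, p-values measure the spread between these libraries.

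Ribosomal proteins and ribosomal RNA form the subunits that translate mRNA: the small subunit decodes the message and the large one joins the amino acids. Each protein is, with few exceptions, present once per ribosome, and the mRNAs are short, abundant and mostly regulated together. Many begin with a run of pyrimidines at the cap (a 5′ terminal oligopyrimidine tract, or TOP), through which TOR signalling adjusts their translation, and Myc promotes their transcription. Their level is high in growing cells and in cells that make much protein, such as young erythroid cells.

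The libraries held 19730726 to 24884372 counts. Levels are given as CPM, counts scaled to the size of the library after its correction by the TMM method of edgeR, with the mean ± SD of 4 libraries per group, and differences as log2 fold changes of Tamoxifen over vehicle. Of the 81 genes, 79 passed the filter on low counts and were tested among 14539 genes. Rpl10l, a copy of Rpl10 used in testis, had 0 counts in every library, which is compatible with an expected count of up to about 3 in each. Rpl39l, the testis copy of Rpl39, had 2 to 17 counts, and both were left untested. The vehicle library oil2453 stood apart, and the comparisons are therefore given with and without it. Its TMM factor was 0.761, compared to 0.946 to 1.10 in the others. As bulk isolates from beads were sequenced, fewer cells of a type and less RNA per cell cannot be told apart.

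To show pyrimidine runs near the starts of these genes, the 30 bases around each annotated start were read from RefSeq promoters (GRCm38.p6). Of these bases 15 lie before the start and 15 from it on, and the longest pyrimidine run is in capitals. The windows shown, except that of Rpl12, were chosen because they hold a long run.
Rpl7a, large subunit, chr2:26910792-26910821, + strand: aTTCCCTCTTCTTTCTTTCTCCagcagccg
Rpl27a, large subunit, chr7:109519180-109519209, + strand: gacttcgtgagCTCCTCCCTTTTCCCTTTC
Rpl35, large subunit, chr2:39005117-39005146, - strand: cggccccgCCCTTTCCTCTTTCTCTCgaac
Rplp2, large subunit, chr7:141447636-141447665, + strand: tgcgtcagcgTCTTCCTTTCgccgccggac
Rps18, small subunit, chr17:33955651-33955680, - strand: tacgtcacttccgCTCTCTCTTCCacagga
Rps6, small subunit, chr4:86857353-86857382, - strand: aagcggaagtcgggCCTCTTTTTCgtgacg
Rps10, small subunit, chr17:27635230-27635259, - strand: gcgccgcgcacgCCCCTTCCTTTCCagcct
Rpl12, large subunit, chr2:32961697-32961726, + strand: ggcggagcaggatccgTCTTTTCggctttc
A run of at least 8 C or T on the strand of the gene stood in 27 of 72 such windows of 60 matched members (37.5%), that is in 26 members, and not in the majority, compared to 3916 of the 32779 other promoter windows (11.9%). Rpl12 is shown for its level in the library oil2453, which differed from that of the other members, and has a run of 7. A match describes the letters only, and a start annotated some bases away moves the run out of the window. A run may also begin before the annotated start, as in each window shown except that of Rpl12. Part of it may then lie outside the mRNA.

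Ribosomal protein genes took a larger share of the counts in oil2453 than in any other library. They held 21.9% of its counts, compared to 6.83%, 10.8% and 7.22% in the vehicle libraries oil2315, oil2653 and oil2368. With Tamoxifen they held 5.33% in Tax2604, 7.35% in Tax2689, 4.77% in Tax2382 and 9.13% in Tax2455. The groups overlapped, as Tax2689 and Tax2455 lay above oil2315. The mean share was 6.65% ± 1.99 in the Tamoxifen and 11.7% ± 7.06 in the vehicle group (SD, n = 4 each), or 8.27% ± 2.16 without oil2453 (n = 3).

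**Figure D1:**
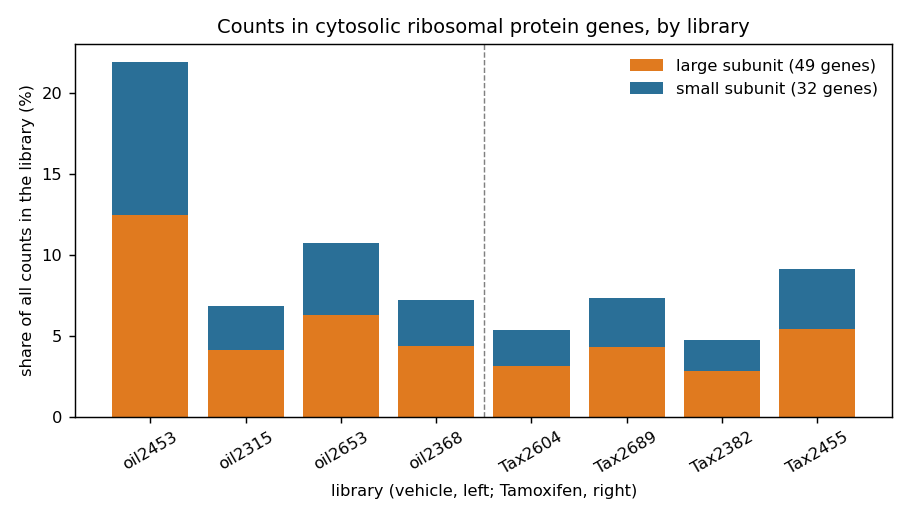
Share of all counts (y axis, percent) held by the 81 cytosolic ribosomal protein genes in each library (x axis), stacked by subunit, 1 bar per library. oil2453 reaches 21.9%, and the other 7 libraries lie between 4.77% and 10.8%.

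The excess of oil2453 covered nearly all members. Of the 79 tested, 76 (96.2%) were highest in oil2453, where 30.2% of all genes tested had their highest level. Against the mean of the other vehicle libraries the median member was at 3.67 times their level, with quartiles of 2.93 and 4.25. The median was 3.77 for small-subunit and 3.41 for large-subunit genes. Rpl35, a protein beside the exit tunnel of the large subunit, had the largest excess: it was at 697 CPM in oil2453 and at 88.3, 183 and 69.6 CPM in oil2315, oil2653 and oil2368. Rps28 and Rps29, small proteins of the 40S head, were at 5.14 and 5.13 times the mean of the other vehicle libraries. The stress-induced paralog Rps27l was at 1.77 times.

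Rpl12, which sits at the base of the ribosomal stalk, was the exception and was lowest in oil2453. Its level was 355 CPM in oil2453 and 1181, 1738 and 1121 CPM in the other vehicle libraries. With Tamoxifen it was at 805, 1142, 760 and 1675 CPM. Thus oil2453 lay below all 7 other libraries, at 0.264 times the mean of the other vehicle libraries, and the groups otherwise overlapped. Rpl12 lies on chromosome 2 from 32961559 to 32964496 (GRCm38), and 46.8% of its 100-base windows also stand in 8 pseudogenes. The log2 fold change of Rpl12 was -0.00 with all libraries and -0.29 without oil2453 (SE 0.47 and 0.33, adjusted p = 0.999 and 0.827 by edgeR), and leaving out oil2653 turned it to 0.31.

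Markers of other cells also set oil2453 apart. All 6 erythroid markers were highest there, with a summed level of 6278 CPM, compared to 24.9 to 525 CPM in the Tamoxifen and 121 to 265 CPM in the other vehicle libraries. Of 11 macrophage and monocyte markers, 10 were lowest there, with a sum of 4997 CPM against 8489 to 15598 CPM in the other 7. The 6 epithelial and tumor cell markers summed to 760 CPM there, compared to 111 to 226 CPM in the other 7. They did not move as a set, as 3 of the 6 were highest in oil2453 and 1 was lowest there. The part of these cells in the ribosomal protein levels was not tested. The 13 endothelial markers summed to 2304 to 4295 CPM with Tamoxifen and to 386 to 1653 CPM with vehicle, so macrophage markers exceeded endothelial ones in every library. With Tamoxifen all 13 had a log2 fold change above 0, with and without oil2453, and the 8 mural cell markers summed to 166 to 381 CPM with Tamoxifen and to 28.7 to 108 CPM with vehicle. Endothelial and mural markers thus moved with the groups. The sums of T and NK cell and of B cell markers were highest in oil2653, at 216 and 491 CPM. Elsewhere they were at 16.5 to 68.3 and 10.6 to 77.2 CPM. All 9 and all 4 of these markers had a log2 fold change below 0, with and without oil2453, though the groups overlapped in both sums. The part of any of these cells in the members' values was not tested. No marker on these lists was at 0 in all libraries.

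Over the other 7 libraries the members followed a common order as well. Relative to its own mean over these libraries, the median member stood at 0.61 on the log2 scale in oil2653, 0.29 in Tax2455, 0.06 in oil2368 and 0.02 in Tax2689. It stood at -0.13 in oil2315, -0.40 in Tax2604 and -0.44 in Tax2382. The order thus crossed the groups. In 73 of 79 members oil2653 was the second highest of all libraries, and 76 were lowest in Tax2604 or Tax2382 (30 and 46). Pearson's r was taken between a member and the mean of all 79, itself included, as a description over 7 libraries that share depth and scaling. It had a median of 0.961, and 5 members were under 0.8: Rps4l, Rpl3l, Rpl3, Rpl24 and Rpl29. Other genes were not counted by this r over the 7 libraries, so it is not shown to be particular to the members.

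**Figure D2:**
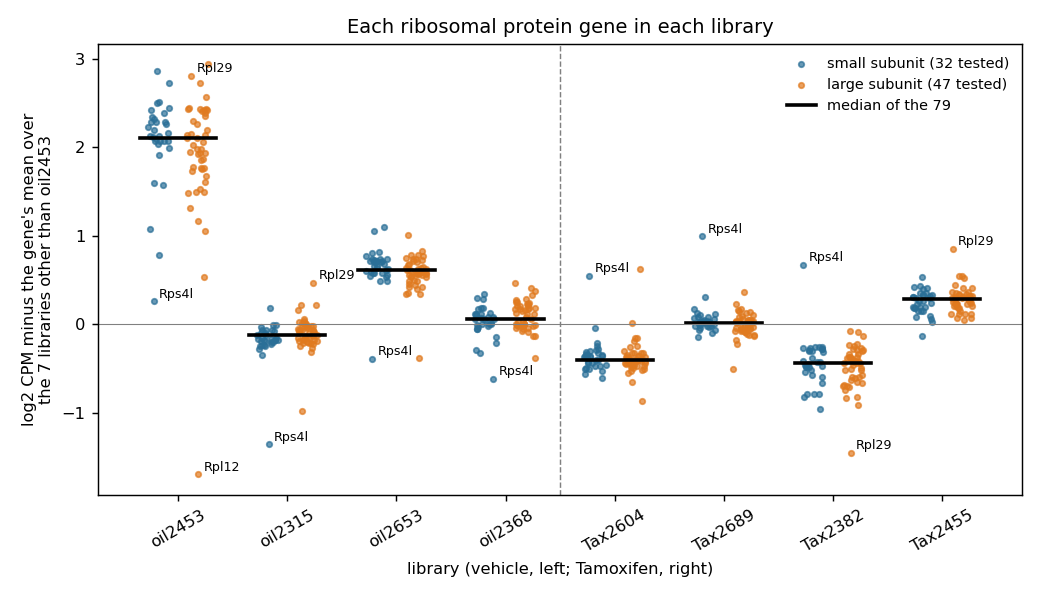
Log2 CPM of each tested member minus its own mean over the 7 libraries other than oil2453 (y axis), by library (x axis), 1 point per gene, with the median of the 79 as a bar. The points of oil2453 lie around 2.11 apart from Rpl12 at -1.70, and the points of the other libraries lie close to medians between -0.44 and 0.61.

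Tamoxifen was then compared to vehicle. Ribosomal protein genes were nearly all lower with Tamoxifen in the fitted values, and none passed the test. Of 79 members, 77 had a log2 fold change below 0 (52.8% of all genes did), with a median of -1.09 and quartiles of -1.21 and -0.92, whereas the median of all genes tested was -0.03. With edgeR's quasi-likelihood test and Benjamini-Hochberg adjustment 0 members were called at an adjusted p under 0.05, as were 0.00% of all genes, and the lowest adjusted p of a member was 0.287. At an unadjusted p under 0.05, 22 members were lower (3.54% of all genes) and 1 was higher (7.39%). DESeq2 called 0 members, while it called 3.95% of all genes. The count of lower members at an unadjusted p under 0.05 depended on the method, at 58 with DESeq2 (5.52% of all genes), 41 without a filter (3.13%) and 9 with library size alone (1.40%). It was 4 with limma-voom (2.63%) and 3 with limma on log2(FPKM + 1) or log2(FPKM + 0.1) (1.72% and 1.73%). The standard error (SE) of a member's log2 fold change had a median of 0.51.

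Most of the difference rested on oil2453. Without it 77 members were still below 0 (53.4% of all genes), but the median log2 fold change was -0.33, with quartiles of -0.40 and -0.26, beside a median of -0.03 over all genes. edgeR then called 0 members, while 1.72% of the genes were called higher. At an unadjusted p under 0.05, Rps29 and Rpl23a were lower (1.54% of all genes) and Rps4l was higher (8.84%). The 22 lower members also varied with each other library that was left out. They were 2 without Tax2604 (0.927% of all genes), 2 without Tax2382 (1.41%) and 4 without Tax2689 (1.99%). They were 16 without oil2653 (2.37%) and 19 without Tax2455 (5.51%), and 62 without oil2315 (6.55%) or without oil2368 (6.20%).

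**Figure D3:**
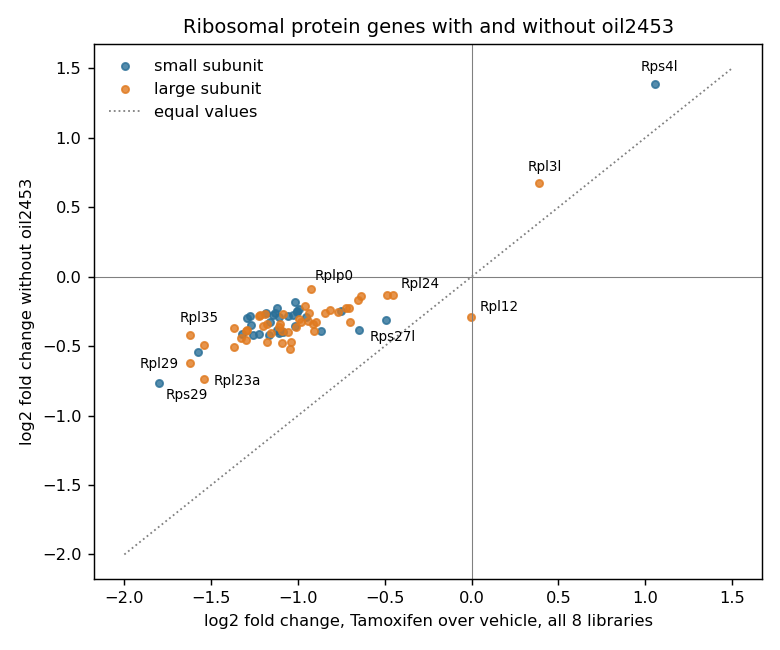
Log2 fold change of Tamoxifen over vehicle for the 79 tested members with all 8 libraries (x axis) and without oil2453 (y axis), 1 point per gene, coloured by subunit. The medians are -1.09 and -0.33, Rps4l and Rpl3l lie above 0 on each axis, and Rpl12 is the point below the line of equal values.

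Of the small subunit, 31 of 32 members were below 0 with all libraries (52.8% of all genes) and 6 were lower at an unadjusted p under 0.05 (3.54%), or 1, Rps29, without oil2453 (1.54%). The median was -1.11, and -0.31 without oil2453. Rps29, a zinc-binding protein of the 40S head, had the most negative value of all members. It was at 3888, 480, 1114 and 678 CPM with vehicle (oil2453, oil2315, oil2653, oil2368) and at 452, 514, 311 and 489 CPM with Tamoxifen (Tax2604, Tax2689, Tax2382, Tax2455). The Tamoxifen libraries lay at the low end, with oil2315 among them. Its log2 fold change was -1.80 (SE 0.62, adjusted p = 0.32 by edgeR), and -0.77 without oil2453 (SE 0.31, adjusted p = 0.413). Rps28 and Rps10, the latter near the mRNA entry site, followed with -1.58 and -1.32 (adjusted p = 0.401 and 0.446 by edgeR), and had -0.54 and -0.42 without oil2453. Rps14, Rps2 and Rps18, the small-subunit genes with the highest FPKM (a level per transcript length; means 3287, 3200 and 2771), had log2 fold changes of -1.14, -1.01 and -1.23, and of -0.27, -0.25 and -0.41 without oil2453. Rpsa, which is also known as a laminin receptor precursor, was at 1508 ± 345 CPM in the Tamoxifen group (SD, n = 4) and at 3279 ± 3063 CPM in the vehicle group (SD, n = 4), or 1776 ± 719 CPM without oil2453 (n = 3). Rps27l lay nearer to 0, with -0.65, and had -0.39 without oil2453.

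Of the large subunit, 46 of 47 tested members were below 0 (52.8% of all genes) and 16 were lower at an unadjusted p under 0.05 (3.54%), or 1, Rpl23a, without oil2453 (1.54%). The median was -1.04, and -0.34 without oil2453. Rpl23a, a docking site for factors at the exit tunnel, was the 1 member without overlap between the groups, all Tamoxifen libraries lying below all vehicle libraries, as they did for 2.01% of the genes tested. It was at 132, 28.3, 41.1 and 31.6 CPM with vehicle and at 18.4, 22.4, 12.9 and 26.4 CPM with Tamoxifen. The groups came nearest to each other in Tax2455 and oil2315. Its log2 fold change was -1.54 (SE 0.50, adjusted p = 0.287 by edgeR), and -0.74 without oil2453 (SE 0.27, adjusted p = 0.322), where it again was the 1 member lower in every Tamoxifen library (2.96% of all genes). Of its exon bases, 55.4% overlap Tlcd1 and 80.0% of its windows stand in other genes, so its count is uncertain.

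Rpl29, a heparin-binding protein of the large subunit, varied most of the tested members within the Tamoxifen group relative to its mean (402 ± 275 CPM, SD, n = 4). It was at 3085, 607, 649 and 605 CPM with vehicle and at 279, 375, 160 and 793 CPM with Tamoxifen. Tax2455 thus lay above oil2315, oil2653 and oil2368, and the other Tamoxifen libraries lay below all vehicle libraries. The log2 fold change was -1.62 (SE 0.68, adjusted p = 0.435 by edgeR), and -0.62 without oil2453 (SE 0.46). Rpl35 had -1.62 and Rpl13 had -1.54, and without oil2453 -0.42 and -0.49. Rpl13a and Rpl41, the latter encoding one of the shortest proteins known, were the most abundant per length beside Rplp1 and had log2 fold changes of -1.01 and -1.09, or -0.36 and -0.27 without oil2453.

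The stalk proteins Rplp0, Rplp1 and Rplp2 recruit elongation factors to the large subunit, and Rplp0 was also a reference gene of the quantitative PCRs of the study, beside Gapdh and Actb. Rplp0 was at 8114, 1734, 2514 and 1717 CPM with vehicle and at 1689, 1717, 1586 and 2427 CPM with Tamoxifen. Apart from oil2453 the groups overlapped over most of their range. Its log2 fold change was -0.92 (SE 0.53, adjusted p = 0.513 by edgeR), and -0.09 without oil2453 (SE 0.26, adjusted p = 0.933), the value nearest 0 among the members in that comparison. Rplp1 and Rplp2 had -1.22 and -1.30, and -0.28 and -0.38 without oil2453. Gapdh, a glycolytic enzyme, was at 6724, 3599, 3377 and 2820 CPM with vehicle and at 2437, 2369, 4625 and 3264 CPM with Tamoxifen, a log2 fold change of -0.38, and -0.04 without oil2453. Actb, which encodes cytoplasmic actin, had -0.47 and -0.37. None of these passed the test, and with all libraries no gene of the table did.

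**Figure D4:**
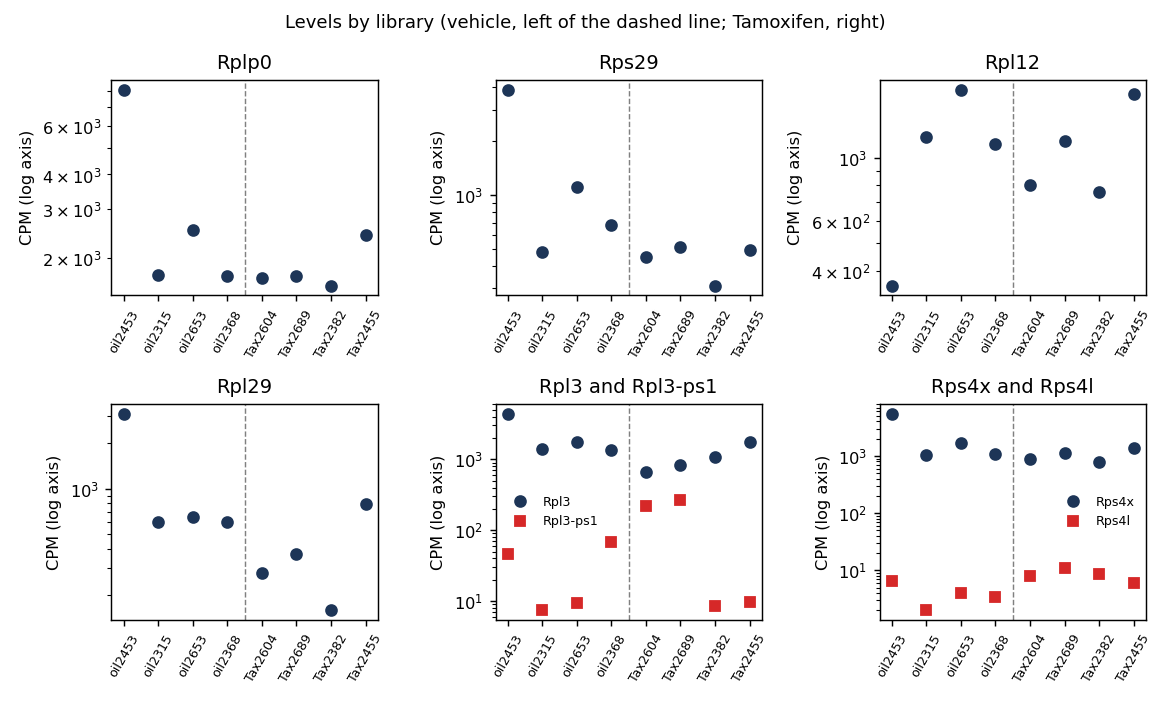
Levels of named genes by library (x axis, vehicle left of the dashed line) in CPM on a log axis (y axis), 1 point per library. oil2453 is highest for Rplp0, Rps29, Rpl29, Rpl3 and Rps4x and lowest for Rpl12, and Rpl3-ps1 reaches 221 and 264 CPM in Tax2604 and Tax2689.

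The balance of the subunits was compared next. The ratio of large-subunit to small-subunit counts was 1.32, 1.51, 1.39 and 1.51 with vehicle (oil2453, oil2315, oil2653, oil2368) and 1.44, 1.43, 1.46 and 1.47 with Tamoxifen. All Tamoxifen libraries lay within the range of the vehicle libraries, and the library with the largest ribosomal protein share, oil2453, had the lowest ratio. The mean ratio was 1.45 ± 0.0186 in the Tamoxifen and 1.43 ± 0.0926 in the vehicle group (SD, n = 4 each), or 1.47 ± 0.0666 without oil2453. From summed FPKM, which corrects for transcript length, it was 1.36 with Tamoxifen and 1.34 with vehicle, or 1.37 with vehicle without oil2453. The sign of the difference thus turned with this library for counts and FPKM alike. Each of these differences was smaller than the SD of the vehicle libraries (for FPKM 0.0779, or 0.0545 without oil2453).

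Copies with restricted or low expression were found at the upper end. Rps4l, a copy of the X-linked Rps4x and a transcribed pseudogene by that annotation, had the highest log2 fold change of all members. It was at 6.45, 2.04, 4.07 and 3.47 CPM with vehicle and at 7.91, 10.8, 8.63 and 5.99 CPM with Tamoxifen, so the groups overlapped only through oil2453 and Tax2455. Its log2 fold change was 1.06 (SE 0.38, adjusted p = 0.353 by edgeR), and 1.39 without oil2453 (SE 0.34, adjusted p = 0.0972), where it was higher in every Tamoxifen library (8.70% of all genes). DESeq2 without oil2453, an alternative added after seeing the data, called it higher (adjusted p = 0.00257), as it did 5.27% of all genes. Over the other alternatives the adjusted p for the log2 fold change of Rps4l ranged from 0.0809 with log2(FPKM + 1) to 0.636 without Tax2604. Rps4x itself was at 5421, 1043, 1668 and 1099 CPM with vehicle and at 882, 1131, 796 and 1397 CPM with Tamoxifen, a log2 fold change of -1.13, and -0.26 without oil2453. None of the 100-base windows of Rps4l stands in Rps4x, and without gaps 79.6% of the 789 coding bases of Rps4x match it. A stretch of each is shown, with the differing base in capitals.
Rps4x, small subunit, chrX:102188339-102188368, - strand: cgtggtcccaagaaacacctgaagcgtgtA
Rps4l, copy of Rps4x, chr6:148354716-148354745, + strand: cgtggtcccaagaaacacctgaagcgtgtG
Rpl3l, the muscle form of Rpl3, was at 0.278 to 1.03 CPM, with a log2 fold change of 0.39 (SE 0.48, adjusted p = 0.772 by edgeR), and of 0.67 without oil2453 (SE 0.49).

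Counts of several members could be divided with near-identical copies. Of the 81 members, 30 share at least 50% of their 100-base windows with genes elsewhere. Rps27, a zinc-finger protein of the 40S subunit, shares all of its 252 coding bases with the retrogene Rps27rt, which is no member. Rps27 was at 52.5 to 407 CPM and Rps27rt at 404 to 1828 CPM, and Rps27rt held 81.8% to 90.6% of their sum in each library. Rpl24, which forms a bridge between the subunits, had at most 1.81 CPM. As 71.5% of its exon bases overlap Gm28037, which had 0 counts in every library, its level is uncertain. The levels of Rpl35 and Rpl13a are uncertain too, as 68.3% and 59.3% of their exon bases overlap Wdr38 and Gm45713. Unlike Rpl24 they were well detected, at 57.7 to 697 and at 1401 to 7239 CPM.

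Rpl3, which lies near the peptidyl transferase centre, and its copy Rpl3-ps1 were ordered differently over the libraries. They differ at 2 of 1209 coding bases, 1 of which is shown in capitals.
Rpl3, large subunit, chr15:80082529-80082558, - strand: aggcatgggtccttgggcttcctgcctcgC
Rpl3-ps1, pseudogene, chrX:13202599-13202628, + strand: aggcatgggtccttgggcttcctgcctcgA
Rpl3 was at 4371, 1385, 1778 and 1344 CPM with vehicle and at 656, 841, 1092 and 1735 CPM with Tamoxifen. Tax2604 and Tax2689 were lowest. Rpl3-ps1 was at 46.8, 7.51, 9.51 and 69.1 CPM with vehicle and at 221, 264, 8.63 and 9.75 CPM with Tamoxifen, so the same libraries were highest. Rpl3-ps1 held 25.2% of the sum of both genes in Tax2604 and 23.9% in Tax2689, and 0.532% to 4.89% elsewhere. Whether a read was given to the gene or to its copy was not tested. Rpl3 had a log2 fold change of -1.04 (SE 0.48, adjusted p = 0.46 by edgeR), and -0.47 without oil2453. Over all 249 pseudogene rows the copies held 0.252 to 0.614 counts per 100 counts of the members.

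Ribosomal proteins outside the symbol rule had values like those of the members. Fau, a fusion of a ubiquitin-like protein with Rps30, was at 7275, 1245, 2103 and 1564 CPM with vehicle and at 1009, 1247, 1076 and 1481 CPM with Tamoxifen. oil2453 again was highest, and the other libraries of both groups overlapped. Its log2 fold change was -1.34 (SE 0.56, adjusted p = 0.43 by edgeR), and -0.44 without oil2453. Rps3a1, Rpl22l1 and Gnb2l1 (the scaffold Rack1) had -1.13, -0.90 and -0.93, or -0.46, -0.34 and -0.16 without oil2453. All 5 genes tested on this list were below 0 without oil2453, with a median of -0.34.

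Other genes of translation were mostly below 0 as well, and with all libraries their medians lay closer to 0 than those of the members. Elongation factors had a median of -0.82 (7 of 7 below 0), and -0.19 without oil2453 (6 of 7). Eef1b2, which exchanges the nucleotide of eEF1A, had the lowest p of this list and a log2 fold change of -1.47, or -0.38 without oil2453. Initiation factors had a median of -0.39 (29 of 31 below 0), and ribosome biogenesis factors one of -0.50 (74 of 79), and without oil2453 they had -0.18 and -0.31. Nmd3, the export adaptor of the large subunit, had -0.996, and -0.58 without oil2453 (SE 0.19, adjusted p = 0.242 by edgeR). At an unadjusted p under 0.05, 22 biogenesis factors were lower with all libraries, beside 3.54% of all genes, and 6 without oil2453, beside 1.54%. The 76 mitochondrial ribosomal proteins tested, which serve the translation in mitochondria, had a median of -0.55 (76 of 76 below 0), and of -0.29 without oil2453 (72 of 76). Short-transcript subunits of the respiratory chain had -0.59 (41 of 41 below 0), and -0.29 without oil2453. With all libraries edgeR called 0 genes of these lists, as it called 0.00% of all genes tested.

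Regulators of ribosome production had values on either side of 0. The 22 genes of TOR signalling and Myc had a median of 0.09, with 12 above 0, and of 0.16 without oil2453. Mycn, a Myc family factor, had 5, 2, 1 and 3 counts in the vehicle libraries and 52, 23, 52 and 66 in the Tamoxifen libraries. All Tamoxifen libraries thus lay above all vehicle libraries, as they did for 5.87% of the genes tested. The fitted log2 fold change of Mycn was 3.86 (SE 0.62, adjusted p = 0.0732 by edgeR), and 4.44 without oil2453 (adjusted p = 0.0382), and depends on the prior count at this depth. Mxd4, which opposes Myc, had 0.67, and 0.75 without oil2453 (adjusted p = 0.125).

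**Figure D5:**
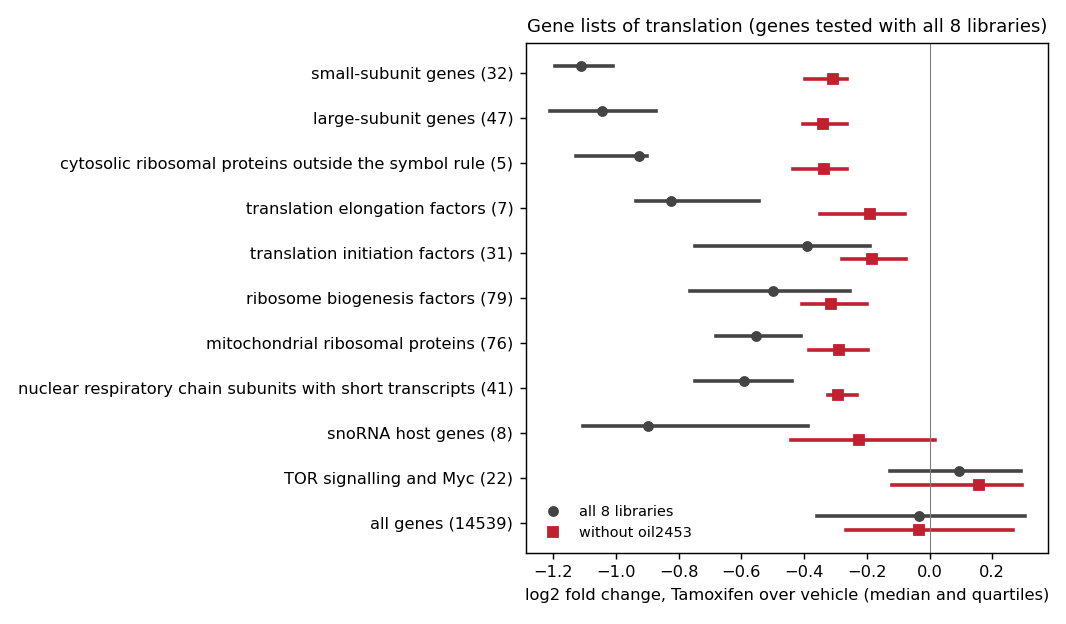
Median (point) and quartiles (line) of the log2 fold change of Tamoxifen over vehicle (x axis) for each gene list (y axis, with the number of genes tested), with all 8 libraries and without oil2453. The medians of the subunits move from -1.11 and -1.04 to -0.31 and -0.34, and that of all genes stays at -0.03.

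Shorter genes had lower log2 fold changes in general. Among genes that are no members, the median log2 fold change was -0.43 for listed lengths up to 500 bases, -0.41 above that and up to 1000 bases, -0.27 up to 2000, -0.05 up to 4000 and 0.17 above 4000. Without oil2453 these medians were -0.27, -0.24, -0.15, -0.04 and 0.09. The 38 members above 500 and up to 1000 bases had a median of -1.10, and of -0.34 without oil2453, and the 23 members above that and up to 2000 bases had -0.99 and -0.28. The part of transcript length in the members' values was not tested. The genes other than members whose log2 CPM over the 8 libraries was most like the mean of the members were Tiprl, Pdrg1, U2af1, Naca and Cnbp, with Pearson's r of 0.997, 0.996, 0.994, 0.994 and 0.994, as a description over libraries that share depth and scaling. Of 14460 genes, 394 had an r over 0.95. Naca, the alpha subunit of the complex that binds nascent chains at the ribosome, was at 1548 CPM in oil2453 and at 304 to 620 CPM in the other libraries. oil2453 was highest for each of these genes.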

How the data were processed

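Tumor endothelial cells of 4 Tamoxifen-treated and 4 vehicle-treated mice were sequenced on an Illumina HiSeq, and groups were taken from the labels. The counts are those the authors deposited, made from cleaned reads with HTSeq 0.6.1. The sources used here do not give whether counting used the strand. Bowtie2 2.2.3, TopHat2 2.0.12 and the build mm8 are named in the submitters' processing notes, whereas the positions in the table match GRCm38, since all 81 members overlap their GENCODE M21 positions. The FPKM values were also made and deposited by the authors, and serve here for levels per length and for an alternative. The table's p-values, group means and fold changes are the authors' and were not used. There were 0 per-sample columns beyond those of the 8 libraries and 0 pairs of identical libraries.

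The members and lists were chosen with earlier results of these data known. Counts of the 14539 genes passing edgeR's filter (minimum count 10) were scaled by TMM and fitted with the quasi-likelihood test of edgeR 4.0.16 in R 4.3.3, with treatment as the only term. P-values were adjusted by Benjamini-Hochberg over all genes tested, and genes under 0.05 were called. At 19730726 to 24884372 counts per library, 75 tested members had over 1000 counts in each library, so counting error was small beside the spread between libraries (biological coefficient of variation 0.441). Named are, per subunit, the 3 members with the highest mean FPKM and the 3 with the lowest and the highest log2 fold change, the stalk proteins and Rpsa, copies and their parents, members whose groups do not overlap, reference genes, up to 3 genes per further list by p, and the 5 most similar genes. Of these, those that carry a comparison are described, and some items are not reported here. Shared sequence was counted as 100-base windows of a member's GENCODE transcript found in transcripts of other genes. The alternatives were other size factors, scaling without the members, DESeq2 1.42.0, limma-voom (limma 3.58.1), other low-count filters, log2(FPKM + 1) and log2(FPKM + 0.1), and leaving out each library.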

Additional observations from a re-analysis of the deposited data

Results flagged for a closer look

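In groups of 4 libraries, values far from the other 3 of their group were found in 11 of 66 groups. Chance gives about 1 in 20 for independent groups. These genes share their libraries and vary together, and some were named for a fold change that rests on oil2453. The count can therefore not be set against that rate. In 10 of the 11 groups the library was oil2453, which lay above the other vehicle libraries. It held 6699 CPM of Rps14, 8705 CPM of Rps2, 3169 CPM of Rps28, 4245 CPM of Rps10 and 5421 CPM of Rps4x among the small-subunit genes. Among the large-subunit genes it held 3085 CPM of Rpl29, 12320 CPM of Rpl13, 8114 CPM of Rplp0, 4371 CPM of Rpl3 and 132 CPM of Rpl23a. The remaining group was that of Rplp0 with Tamoxifen, where Tax2455 was at 2427 CPM and the others were at 1586 to 1717 CPM. Outside the comparisons, the pseudogene Rpl3-ps1 was at 264 CPM in Tax2689, above all vehicle libraries (at most 69.1 CPM).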

How the results depend on the processing

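No paired analysis was possible because the groups share no replicate numbers. The median log2 fold change of the members stayed below 0 in each alternative run, at -1.10 with median-of-ratios size factors or DESeq2, -1.05 with scaling without the members, -0.84 with library size alone or limma-voom and -0.70 with FPKM. Under both FPKM settings the median of all genes moved by 0.10 and 0.12. Leaving out 1 library gave medians of -1.32 to -0.33 for all members, -1.38 to -0.31 for the small and -1.26 to -0.34 for the large subunit, the values nearest 0 being those without oil2453, where DESeq2 gave -0.32 for all and -0.30 for the small subunit. Genes called over the whole table were 177 with library size alone, 574 with DESeq2, 68 without a filter, 317 and 221 with FPKM + 1 and + 0.1, and 0 to 256 when 1 library was left out (256 without oil2453, 31 without oil2368), and 796 with DESeq2 without oil2453, which called 1 member, Rps4l. The cause was not tested. The log2 fold change of Rpl12, near 0, turned to 0.0058 with median-of-ratios size factors or DESeq2, 0.050 with library size alone, 0.0018 with scaling without the members, 0.15 with limma-voom, 0.013 with at least 10 counts in each library and 0.24 with either FPKM setting, and ranged from -0.29 to 0.31 when 1 library was left out. The hemoglobin genes Hba-a1, Hba-a2 and Hbb-bs ranged from -3.26 to 0.57, -3.36 to 1.22 and -3.24 to 0.37, the positive values being those without oil2453 by edgeR and DESeq2 alike. The subunit ratio was 1.34 with vehicle and 1.36 with Tamoxifen from FPKM, and 1.49 with vehicle (1.54 without oil2453) and 1.53 with Tamoxifen without the 3 members with most counts per subunit.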

Other observations

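The pseudogene Rpl34-ps1, a copy of a large-subunit gene, was present in some libraries of each group and nearly missing in others. It had 1082, 0, 3277 and 1675 counts in the vehicle libraries oil2453, oil2315, oil2653 and oil2368. With Tamoxifen it had 10 and 12 counts in Tax2604 and Tax2689 and 2567 and 1863 in Tax2382 and Tax2455. The 0 in oil2315 is compatible with an expected count of up to about 3, or 0.139 CPM. Of the libraries low in Rpl34-ps1, Tax2604 and Tax2689 were highest and oil2315 was lowest in Rpl3-ps1.

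The median log2 fold change of mitochondrially encoded genes was -0.52, and -0.70 without oil2453, with 11 of 12 tested below 0 each time. All rows with a symbol that starts with mt-, whether on this list or not, held 0.648% of the counts in oil2453 and 0.823% to 3.11% in the others. The hosts of small nucleolar RNAs had a median of -0.90, and of -0.22 without oil2453, with 6 of 8 below 0. Other proteins with a TOP mRNA had medians of -0.77 (17 of 17 below 0) and -0.24 (16 of 17). This list is not separate from those above, as it shares Eef1b2 with the elongation factors and Eif3e with the initiation factors. None of these genes was called by edgeR with all libraries, where it called 0.00% of all genes tested.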
